A study of Mus musculus with 21 samples.

Results

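The 10 genes described here encode G protein-coupled receptors for 3 transmitters: the serotonin receptors Htr1a, Htr1b, Htr2a, Htr2c and Htr4, the muscarinic acetylcholine receptors Chrm1, Chrm3 and Chrm4, and the neuropeptide Y (NPY) receptors Npy1r and Npy2r. They were picked by name, as entries of the count table whose Ensembl number carries one of these symbols, and make up 10 of 64361 genes in the table. Bulk RNA came from cortex and hippocampus of GA-Camk2a mice and controls and was profiled by prime-seq, which tags the 3′ ends of polyadenylated transcripts with a barcode and pools the samples early. The 21 libraries comprised 5 control and 6 GA-Camk2a libraries of cortex and 4 control and 6 GA-Camk2a libraries of hippocampus, from 11 mice, 10 of which gave both tissues. GA-Camk2a mice carry a floxed-stop transgene for GFP-(GA)175, GFP fused to poly-GA, one of the dipeptide repeat proteins made from the C9orf72 repeat expansion, which the Camk2a-Cre driver turns on in excitatory neurons. The controls are labelled ctrl, with no further statement of which alleles they carried. The lines were kept on the C57BL/6J background, and the GA-Camk2a mice came from 2 litters. The labels give an age of 30 to 40 weeks for all mice. The study instead describes the GA-Camk2a mice as 30 weeks old, and places their humane endpoint at about 30 weeks. The library totals ranged from 1048201 to 5888102 counts. In hippocampus the median total was 3732867 counts in controls and 2024409 in GA-Camk2a mice, and in cortex it was 1975173 and 1844970.

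Serotonin, acetylcholine and NPY tune how readily cortical and hippocampal neurons fire and release transmitter. Htr2a, Htr2c, Chrm1 and Chrm3 couple to Gq/11, which activates phospholipase C, mobilizes calcium, engages protein kinase C and closes KCNQ potassium channels. Htr1a, Htr1b, Chrm4, Npy1r and Npy2r couple to Gi/o, which lowers cyclic AMP and opens inward rectifier potassium channels, and Htr4 couples to Gs, which raises cyclic AMP. In the hippocampus, Y2 receptors sit on the terminals of excitatory neurons, where NPY from interneurons restrains glutamate release, while M1 and M3 receptors mediate much of the slow cholinergic excitation of pyramidal cells.

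The promoter sequences of 4 receptors are shown because the results turn on them: Npy2r and Chrm3 fell in hippocampus, Htr2a fell in cortex, and Npy1r is the relative of Npy2r that passed the threshold in neither tissue. Each is the run of 250 bases before the annotated gene start, written 5′ to 3′ on the strand of the gene, from RefSeq on GRCm38.p6. Windows were taken for 8 of the 10 receptors, and none for Chrm1 and Htr4. Capitals mark letters that match the core of a cyclic AMP response element (TGACG), a GC box (GGGCGG), an E-box (CAGNTG), the promoter element TATAAA or a box of the letters CCAAT, on either strand. The Npy2r window lies at chr3:82548086-82548335 on the minus strand, the Chrm3 window at chr13:10360804-10361053 on the minus strand, the Htr2a window at chr14:74640624-74640873 on the plus strand and the Npy1r window at chr8:66697172-66697421 on the plus strand.
Npy2r: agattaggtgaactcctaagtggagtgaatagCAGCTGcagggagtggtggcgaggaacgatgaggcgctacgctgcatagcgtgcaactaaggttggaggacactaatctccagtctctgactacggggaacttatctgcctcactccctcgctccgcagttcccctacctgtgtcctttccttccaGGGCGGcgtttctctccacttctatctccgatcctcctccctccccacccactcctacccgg
Chrm3: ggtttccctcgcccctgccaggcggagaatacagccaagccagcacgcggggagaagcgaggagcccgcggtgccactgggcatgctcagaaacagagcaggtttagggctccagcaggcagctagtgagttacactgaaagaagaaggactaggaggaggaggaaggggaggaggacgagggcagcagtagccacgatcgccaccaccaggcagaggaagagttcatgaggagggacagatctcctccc
Htr2a: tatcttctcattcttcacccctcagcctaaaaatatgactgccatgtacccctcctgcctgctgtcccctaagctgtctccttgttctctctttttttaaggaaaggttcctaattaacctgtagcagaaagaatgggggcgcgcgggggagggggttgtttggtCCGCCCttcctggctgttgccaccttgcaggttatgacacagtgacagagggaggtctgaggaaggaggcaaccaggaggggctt
Npy1r: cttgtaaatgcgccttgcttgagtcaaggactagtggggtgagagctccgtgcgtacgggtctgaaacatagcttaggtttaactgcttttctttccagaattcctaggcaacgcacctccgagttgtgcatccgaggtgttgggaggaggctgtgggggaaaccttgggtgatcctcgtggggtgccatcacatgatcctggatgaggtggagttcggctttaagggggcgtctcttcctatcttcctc
The Npy2r window held 1 GC box and, farther upstream, the letters CAGCTG, an E-box that reads the same on both strands. The Htr2a window held 1 GC box on the opposite strand. None of the 5 motifs was found in the Chrm3 and Npy1r windows. The share of guanine and cytosine was 61.2% for Chrm3, 56.8% for Npy2r, 53.6% for Npy1r and 52.8% for Htr2a. Over the 27025 promoters of the same length, 32.9% held a GC box, 44.5% an E-box, 34.5% the letters CCAAT, 17.9% the core TGACG and 13.0% the element TATAAA. These matches describe letters in the window and are not evidence of a bound factor.

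Of the 10 receptors, 4 fell in GA-Camk2a mice, 3 in hippocampus and 1 in cortex, and for 1 of them, Npy2r, the test of the difference between tissues passed. In hippocampus, Npy2r, Chrm3 and Chrm1 were lower by 66.9%, 58.3% and 42.3%. In cortex, Htr2a was lower by 48.4%. Of the 8 receptors that could be tested in hippocampus, 3 passed the threshold (edgeR, adjusted p under 0.05), all lower, where 10.9% of the 14884 genes tested passed and 5.97% passed and were lower. Of the 7 that could be tested in cortex, 1 passed, where 12.5% of 13058 genes passed and 6.17% passed and were lower. The median log2 change of the tested receptors was -0.65 in hippocampus and -0.38 in cortex, beside 0.02 and -0.01 over all genes tested. At an unadjusted p under 0.05 there were 5 receptors in hippocampus and 4 in cortex. Over all genes tested, 3682 of 14884 in hippocampus and 3388 of 13058 in cortex were under it. Every GA-Camk2a library lay below every control library for 3 receptors in hippocampus and 1 in cortex, a separation found in this direction for 4.02% and 2.67% of all genes tested. The receptors, and the gene lists below, were chosen with earlier results of these data known. The values over all genes are therefore given for scale and do not test the lists.

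Levels are given as counts-per-million (CPM), the share of a library's counts that fell on the gene. They are compared for 1 gene between libraries and not between genes. A lower level in tissue RNA can mean fewer cells that express the receptor or less RNA in each of them, and these cannot be told apart here.

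**Figure D1:**
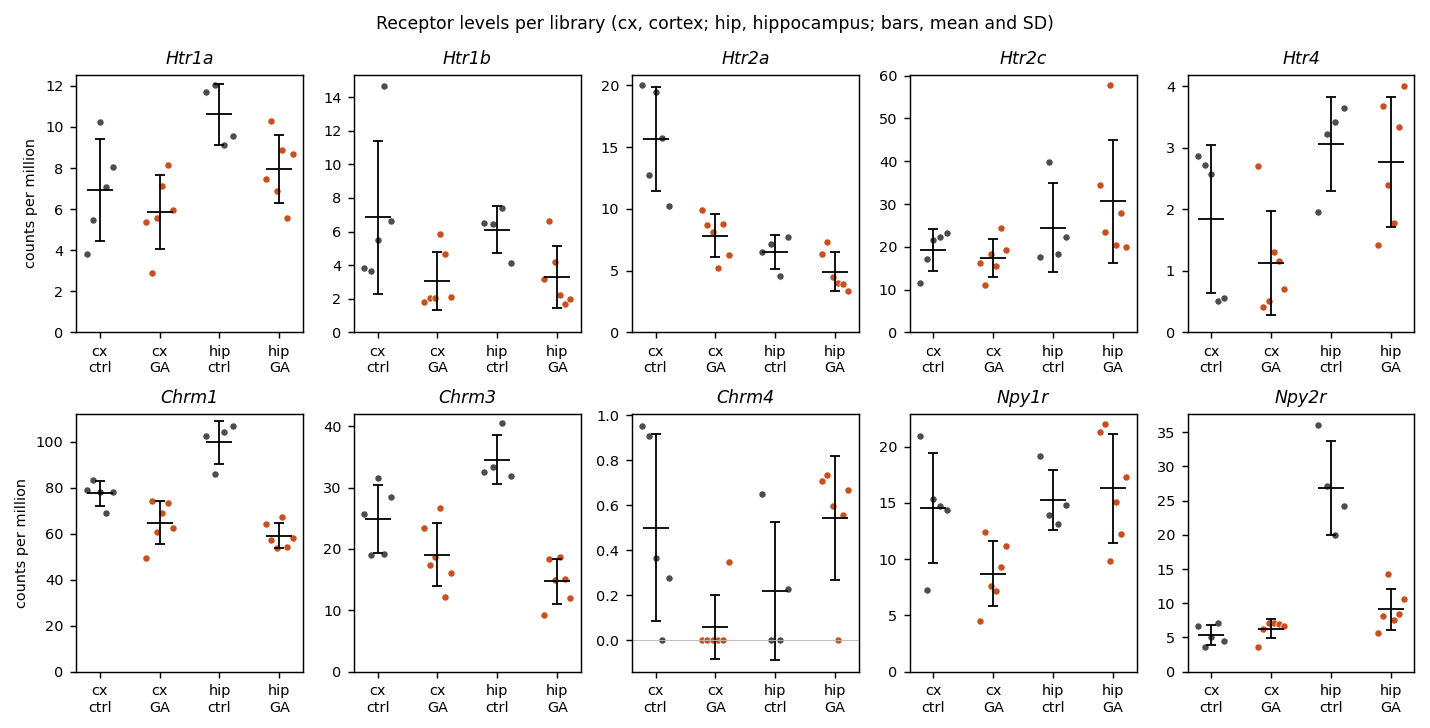
Level of each receptor in every library, in CPM on the vertical axis, for cortex (cx) and hippocampus (hip) of control (ctrl, grey) and GA-Camk2a (GA, orange) mice; points are libraries and bars the mean and SD. The GA-Camk2a points lie below all control points for Htr2a in cortex and for Chrm1, Chrm3 and Npy2r in hippocampus.

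The GFP entry of the table, for the transgene, held 0 to 2 counts in control and 0 to 4 in GA-Camk2a libraries and therefore does not check the genotype labels. The tissue labels were matched by 5 of 5 hippocampal markers, which summed to 589 to 734 CPM in control hippocampus and 91.7 to 154 CPM in control cortex. Of 5 cortical markers, 3 were lower in control hippocampus and 1 was higher, and Rorb, a layer 4 marker, reached 1455 CPM in 1 control and 5303 CPM in 1 GA-Camk2a hippocampus library.

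Markers of excitatory neurons, the cells that express the transgene, were also lower. Their summed level was 2159 to 2687 CPM in control and 1151 to 1557 CPM in GA-Camk2a hippocampus, and 1959 to 2450 CPM and 1286 to 1736 CPM in cortex. Of 7 such markers, 5 fell in hippocampus and 4 in cortex. In hippocampus, Neurod6, a transcription factor of pyramidal cells, changed by -1.97 ± 0.17, and Spink8 and Fibcd1, markers of pyramidal fields, by -1.57 ± 0.13 and -1.05 ± 0.23 (edgeR, adjusted p = 7.16e-06, 6.69e-06 and 0.007). Prox1 and C1ql2, markers of dentate granule cells, changed by 0.21 and -0.22 (adjusted p = 0.494 and 0.378). Neurod6 had the lowest change of the 7 excitatory neuron markers, whose median was -0.86. Of the 5 hippocampal markers, 2 passed in hippocampus, both lower. Spink8 was the only marker of its list to pass the test between tissues, with -1.83 ± 0.25 (adjusted p = 0.000798). In cortex, all 9 striatal markers fell, their sum being 925 to 1507 CPM in controls and 267 to 621 CPM in GA-Camk2a mice. Microglia markers rose in each tissue (4 of 6), as did astrocyte markers (5 of 5 in hippocampus and 4 of 5 in cortex), and no oligodendrocyte or thalamus marker passed in either. The part of these cell types in the receptor changes was not tested.

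In control mice, Npy2r was higher in hippocampus and Htr2a in cortex. For Npy2r the difference was the largest among the 8 tested: in control cortex its levels were 6.68, 3.63, 5.13, 7.09 and 4.43 CPM, and in control hippocampus they were 36.0, 27.2, 19.9 and 24.2 CPM. The hippocampal libraries all lay above the cortical ones, by 2.34 ± 0.22 on the log2 scale (SE; edgeR, adjusted p = 2.24e-06), a 5.05-fold difference. Htr2a showed the opposite order, with 20.0, 12.7, 19.4, 15.7 and 10.3 CPM in control cortex and 6.50, 7.13, 4.56 and 7.75 CPM in control hippocampus, and no overlap between the groups. The log2 difference of Htr2a, hippocampus minus cortex, was -1.18 ± 0.24 (edgeR, adjusted p = 0.00215). Chrm1 was slightly higher in hippocampus, by 0.33 ± 0.10 (edgeR, adjusted p = 0.0385). This small difference did not pass in 6 of the 9 fits that each left out 1 library (control cortex 11, 37 or 38, control hippocampus 11, 31 or 37), nor with the mouse as a replicate block (adjusted p = 0.0853). It also missed with DESeq2 (adjusted p = 0.0543 without and 0.062 with batch). In edgeR it missed with no count filter (adjusted p = 0.112) and with all libraries thinned to the smallest (adjusted p = 0.238). Leaving out the hippocampal libraries high in choroid plexus markers, described below, gave an adjusted p of 0.112 (edgeR). Chrm3 lay higher in every control hippocampus library than in any control cortex library, with a difference of 0.40 ± 0.15 that passed only with the replicate block (edgeR, adjusted p = 0.0785 without it and 0.0399 with it) or without control cortex 31. Of 8 receptors tested between the tissues, 3 passed, where 16.3% of 14435 genes did. Htr1a, Htr1b, Htr2c and Npy1r differed between the control tissues by 0.49, -0.41, 0.23 and 0.08 on the log2 scale, none past the threshold.

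Npy2r, the presynaptic Y2 receptor, gave the largest change among the 8 receptors tested in hippocampus. In GA-Camk2a hippocampus its lowest, median and highest levels were 5.67, 8.22 and 14.3 CPM, against 36.0, 27.2, 19.9 and 24.2 CPM in the controls. The highest GA-Camk2a library stayed below the lowest control. The log2 change was -1.59 ± 0.22 (edgeR, adjusted p = 0.00027). In cortex the levels of Npy2r were 3.60, 6.82 and 7.15 CPM at the lowest, median and highest GA-Camk2a library and overlapped the controls, with a log2 change of 0.29 ± 0.25 (adjusted p = 0.51). The genotype effect differed between the tissues, by -1.89 ± 0.35 on the log2 scale (edgeR interaction test over 21 libraries, adjusted p = 0.0104). Npy2r was the only receptor to pass this test, which 0.4% of 14751 genes passed. The difference was -1.67 with the mouse as a replicate block (adjusted p = 0.029), and it missed the threshold once all libraries were thinned to the smallest (-1.93, adjusted p = 0.0714). In hippocampus, batch 1 alone gave -1.70 (adjusted p = 0.0771) and batch 2 alone -1.50 (adjusted p = 0.00472).

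**Figure D2:**
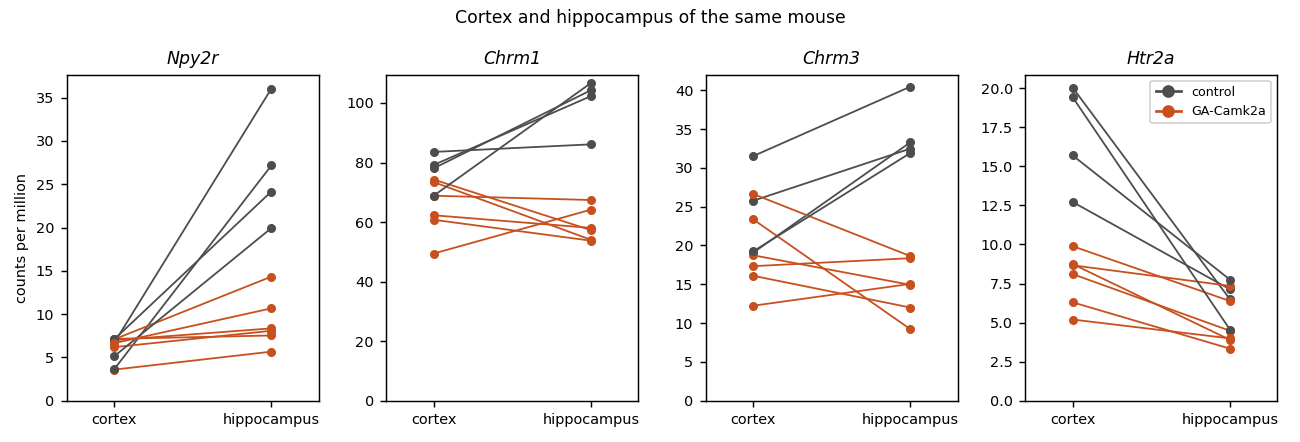
Levels of Npy2r, Chrm1, Chrm3 and Htr2a in CPM (vertical axis) in cortex and hippocampus of the 4 control (grey) and 6 GA-Camk2a (orange) mice with both tissues; a line joins the tissues of 1 mouse. Chrm1 was higher in hippocampus than in cortex in 4 of 4 controls and 1 of 6 GA-Camk2a mice, and Npy2r in all 10 mice, reaching 14.3 CPM at most in the GA-Camk2a mice.

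Within single mice, Npy2r was higher in hippocampus than in cortex in all 4 controls and all 6 GA-Camk2a mice. The plot of both tissues per mouse shows this for 4 receptors. Chrm1 was higher in hippocampus in 4 of 4 controls but in 1 of 6 GA-Camk2a mice, and Chrm3 in 4 of 4 controls and 2 of 6 GA-Camk2a mice. Htr2a was higher in cortex in all 10 mice.

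Npy1r, the Y1 receptor that lies mainly on cell bodies and dendrites, passed the threshold in neither tissue. Its hippocampal levels were 19.2, 13.9, 13.1 and 14.8 CPM in controls and 9.86, 16.2 and 22.0 CPM at the lowest, median and highest GA-Camk2a library, with a log2 change of 0.02 ± 0.21 (edgeR, adjusted p = 0.974). The sign of so small a change turned under several settings. In cortex Npy1r measured 20.99, 7.27, 15.4, 14.7 and 14.4 CPM in controls and 4.49, 8.46 and 12.4 CPM in GA-Camk2a mice. These groups overlapped through the control library of 7.27 CPM, from mouse 20. The log2 change in cortex was -0.68 ± 0.22 and just missed the threshold (edgeR, adjusted p = 0.0506). It passed without control 20 or without GA-Camk2a 23, 35 or 41, and within batches it was -0.68 in each (adjusted p = 0.115 and 0.58). The difference between the tissues, 0.67 ± 0.32, did not pass (adjusted p = 0.491).

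Npy itself, the peptide that interneurons release onto these receptors, rose in cortex. It ranged from 236 to 285 CPM in control cortex and from 245 to 401 CPM in GA-Camk2a cortex, a log2 change of 0.44 ± 0.11 (edgeR, adjusted p = 0.0117). This call was lost without control 31 and in batch 2 alone. In hippocampus Npy changed by -0.22 ± 0.12 (adjusted p = 0.277), with 146 to 187 CPM in controls and 129 to 213 CPM in GA-Camk2a mice. Summed markers of inhibitory neurons, which include the cells that make NPY, spanned 1074 to 1202 CPM in control cortex and 1161 to 1539 CPM in GA-Camk2a cortex. Of these 7 markers, 1 passed higher and 1 lower in cortex, with a median log2 change of 0.11. The part of these neurons in the Npy result was not tested.

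Of the muscarinic receptors, Chrm1 and Chrm3 fell in hippocampus. Chrm1 encodes the M1 receptor of excitatory neurons. In control hippocampus it measured 102, 86.1, 104 and 107 CPM, and in GA-Camk2a hippocampus 53.8, 57.7 and 67.4 CPM at the lowest, median and highest library. The groups were clearly apart. The log2 change was -0.79 ± 0.09 (edgeR, adjusted p = 5.36e-05), and both batches alone gave -0.80 (adjusted p = 0.0422 and 0.00472). In cortex Chrm1 measured 79.2, 83.6, 78.0, 68.9 and 78.1 CPM in controls and 49.4, 65.6 and 74.3 CPM in GA-Camk2a mice, with a log2 change of -0.24 ± 0.11 that did not pass (adjusted p = 0.181). The change in hippocampus minus that in cortex was -0.57 ± 0.14 and missed the threshold (edgeR interaction test, adjusted p = 0.0676), while it passed with DESeq2 (adjusted p = 0.0444 without and 0.0237 with batch) and without control cortex 20. The exons of Chrm1 share bases with Gm22820 on the opposite strand, and whether strand was used in counting is not given in the sources used here.

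Chrm3, the M3 receptor, which also couples to Gq/11, fell further. Control hippocampus held 32.5, 33.3, 40.5 and 31.9 CPM and GA-Camk2a hippocampus 9.22, 15.0 and 18.6 CPM at the lowest, median and highest library. The GA-Camk2a libraries did not reach the lowest control. The log2 change was -1.26 ± 0.16 (edgeR, adjusted p = 0.000127), with -1.23 in batch 1 (adjusted p = 0.0771) and -1.32 in batch 2 (adjusted p = 0.00337). In cortex Chrm3 measured 25.8, 19.1, 31.5, 19.2 and 28.5 CPM in controls and 12.2, 18.0 and 26.6 CPM in GA-Camk2a mice. The groups overlapped and the log2 change of -0.46 ± 0.17 did not pass (adjusted p = 0.081), although it did without GA-Camk2a 16 or 34. The difference between the tissues, -0.85 ± 0.25, did not pass either (adjusted p = 0.17).

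Chrm4, the M4 receptor of striatal projection neurons and some cortical cells, was almost absent from the counts. All 21 libraries together held 4 counts in control cortex, 1 in GA-Camk2a cortex, 3 in control hippocampus and 7 in GA-Camk2a hippocampus, and the highest library reached 0.954 CPM. Chrm4 did not pass the count filter. With no filter its fitted log2 change was -1.66 ± 1.26 in cortex and 1.09 ± 0.96 in hippocampus (edgeR, adjusted p = 0.69 and 0.792), so no difference was detectable at this depth. In the GENCODE M21 annotation of GRCm38, the Chrm4 model has 1440 exonic bases of which 1437 are coding, and it ends 3 bases past the coding part. Htr4, the other receptor with too few counts, ends 65 bases past it, whereas the models of the other 8 receptors extend 1607 to 4275 bases farther. The annotation that the authors counted with is not given in the sources used here, and the part of these short models in the low counts was not tested.

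Among the serotonin receptors, Htr2a, the Gq/11-coupled receptor of cortical pyramidal cells, was the one that passed the threshold. In cortex the controls measured 20.0, 12.7, 19.4, 15.7 and 10.3 CPM and the GA-Camk2a mice 5.20, 8.39 and 9.89 CPM at the lowest, median and highest library. The highest GA-Camk2a library stayed just below the lowest control, that of mouse 38. The log2 change was -0.96 ± 0.22 (edgeR, adjusted p = 0.00611), and it passed in each of the 11 fits that left out 1 library. Batch 1 alone gave -1.10 (adjusted p = 0.0238) and batch 2 alone, with 2 libraries a group, -0.65 (adjusted p = 0.481). In hippocampus, where the receptor is scarcer, the GA-Camk2a libraries ranged from 3.34 to 7.35 CPM with a median of 4.24 CPM and overlapped the controls. The log2 change there was -0.51 ± 0.25 (adjusted p = 0.223), and the difference between the tissues did not pass (0.46 ± 0.34, adjusted p = 0.708).

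Htr2c, the receptor that choroid plexus epithelium carries besides many neurons, passed no test between genotypes but varied widely in hippocampus. It measured 17.5, 39.7, 18.2 and 22.3 CPM in control hippocampus and 20.0, 25.7 and 57.9 CPM at the lowest, median and highest GA-Camk2a library. The log2 change of 0.27 ± 0.31 did not pass (edgeR, adjusted p = 0.662) and turned to -0.04 without GA-Camk2a 30, the library with 57.9 CPM. The batches gave 0.89 and -0.46. In cortex, where controls held 11.4 to 23.3 CPM and GA-Camk2a mice 11.1 to 24.5 CPM, the change was -0.19 ± 0.19 (adjusted p = 0.578). The summed level of 6 choroid plexus markers (Ttr, Folr1, Kl, Clic6, Otx2 and Kcnj13) reached 24728 to 55551 CPM in 5 hippocampal libraries, 3 GA-Camk2a and 2 control, and 1812 to 10886 CPM in the other 5. Htr2c spanned 22.3 to 57.9 CPM in the former and 17.5 to 23.5 CPM in the latter. In hippocampus no marker of the list differed between the genotypes, and its part in the Htr2c values was not tested. Without these 5 libraries the genotype change of Htr2c was 0.17 (adjusted p = 0.789), and Npy2r, Chrm1 and Chrm3 still passed, with changes of -1.71, -0.80 and -1.19 (edgeR, adjusted p = 0.00929, 0.0102 and 0.0182).

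**Figure D3:**
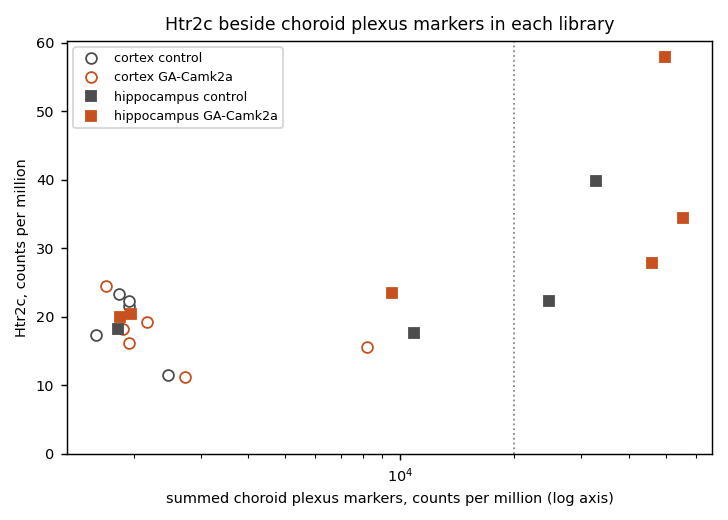
Htr2c in CPM (vertical axis) against the summed level of 6 choroid plexus markers (horizontal log axis) in each of 21 libraries, with cortex as open circles and hippocampus as filled squares, grey for control and orange for GA-Camk2a. The 5 hippocampal libraries to the right of the dotted line at 20000 span 22.3 to 57.9 CPM of Htr2c and hold both genotypes.

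Htr1a and Htr1b are the Gi/o-coupled autoreceptors of serotonin neurons, which also act on target cells, Htr1a on the bodies of hippocampal pyramidal cells and Htr1b on nerve terminals. Htr1a measured 11.7, 12.1, 9.12 and 9.57 CPM in control hippocampus and 5.57, 8.06 and 10.3 CPM in GA-Camk2a hippocampus, and 5 of 6 GA-Camk2a libraries lay below all controls. The log2 change of -0.50 ± 0.19 did not pass (edgeR, adjusted p = 0.105), and in cortex, with 3.82 to 10.3 CPM in controls and 2.89 to 8.16 CPM in GA-Camk2a mice, it was -0.38 ± 0.27 (adjusted p = 0.41). Htr1b measured 6.50, 6.45, 7.41 and 4.10 CPM in control hippocampus and 1.67, 2.70 and 6.61 CPM in GA-Camk2a hippocampus, with 4 of 6 libraries below all controls. Its change of -0.86 ± 0.31 did not pass (adjusted p = 0.0956) except without GA-Camk2a 23, the library at 6.61 CPM (adjusted p = 0.0488).

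In cortex Htr1b fell under the count filter, which its levels of 3.82, 3.63, 5.50, 14.7 and 6.65 CPM in controls and 1.80, 2.08 and 5.85 CPM in GA-Camk2a mice place near the limit. With no filter, or without control 11 or 20, it was tested there and fell, with log2 changes of -1.22 to -1.35 (edgeR, adjusted p = 0.00837 with no filter, 0.0327 without control 11 and 0.0119 without control 20). In batch 1 alone, where it was tested too, the change was -1.01 and did not pass (adjusted p = 0.15). The exons of Htr1b overlap those of D430036J16Rik on the opposite strand. Htr4, the Gs-coupled receptor, held 1 to 19 counts per library, or 0.413 to 4.00 CPM, in all groups together. Its fitted change with no filter was -0.35 in hippocampus and -0.67 in cortex (adjusted p = 0.792 and 0.69), so no difference was detectable at this depth.

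**Figure D4:**
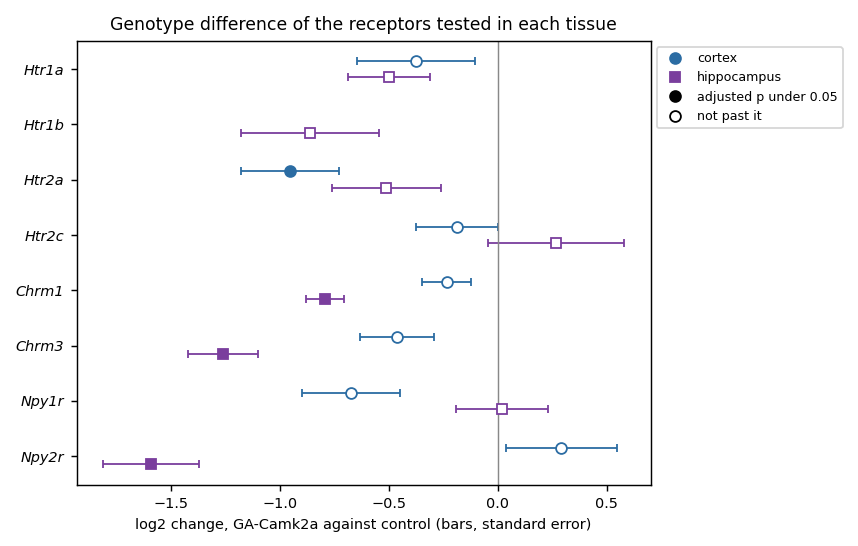
Log2 change in GA-Camk2a against control mice (horizontal axis) for the receptors tested in cortex (blue circles) and hippocampus (purple squares), with the standard error as bars and filled symbols past an adjusted p of 0.05. The filled symbols are Htr2a in cortex at -0.96 and Chrm1, Chrm3 and Npy2r in hippocampus at -0.79, -1.26 and -1.59.

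Most of the tested Gq/11 pathway genes fell in each tissue. Of 19 genes in this list, which includes G proteins, phospholipase C isoforms, inositol trisphosphate receptors, protein kinase C isoforms, diacylglycerol effectors and KCNQ channels, 17 were tested. In hippocampus 12 were lower and 0 higher, and in cortex 10 were lower and 0 higher, with a median log2 change of -0.54 and -0.56, beside 0.02 and -0.01 over all genes tested. Among all genes tested, 5.97% passed and were lower in hippocampus and 6.17% in cortex. The excitatory neuron markers given above had medians of -0.86 in hippocampus and -0.51 in cortex, and their part in the change of this list was not tested. The diacylglycerol kinase Dgkb changed by -1.22 ± 0.15 in cortex and -0.85 ± 0.12 in hippocampus (edgeR, adjusted p = 6.01e-06 and 0.000263). Rasgrp1, a Ras activator that binds diacylglycerol, changed by -0.70 ± 0.09 and -0.95 ± 0.10 (adjusted p = 2.46e-05 and 2.76e-05). The kinase Prkcb changed by -0.81 ± 0.17 and -1.16 ± 0.14 (adjusted p = 0.00239 and 8e-05).

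**Figure D5:**
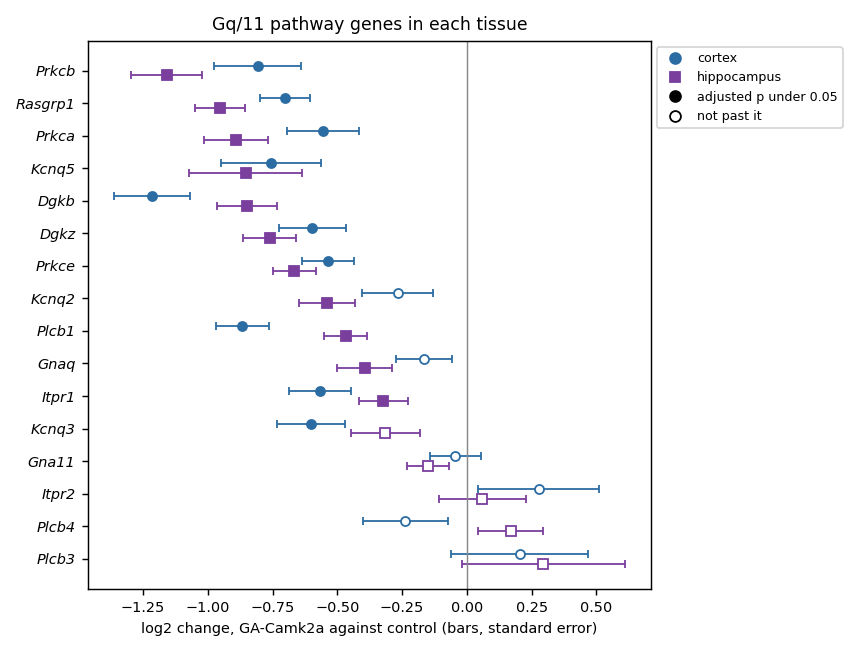
Log2 change in GA-Camk2a against control mice (horizontal axis) of 16 of the 17 tested Gq/11 pathway genes in cortex (blue circles) and hippocampus (purple squares), with standard errors and filled symbols past an adjusted p of 0.05. All filled symbols lie left of 0, 11 of them for hippocampus and 10 for cortex.

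Genes of the Gi/o and Gs side moved in both directions. Of 22 genes, 21 were tested in hippocampus, and 2 were higher and 9 lower. In cortex 20 were tested, and 1 was higher and 9 lower. Of all genes tested, 10.9% passed in hippocampus and 12.5% in cortex. Adcy5, an adenylyl cyclase of striatal neurons, changed by -1.06 ± 0.14 in cortex and 0.05 ± 0.13 in hippocampus, and these changes differed (edgeR interaction test, adjusted p = 0.009). Gng7, a G protein gamma subunit, and Gnal, the olfactory and striatal Gs-type subunit, fell in cortex, with log2 changes of -0.77 ± 0.16 and -0.67 ± 0.12 (adjusted p = 0.00223 and 0.000631), beside the fall of the striatal markers given above, whose part was not tested. Gng7 also fell in hippocampus, with a log2 change of -0.45 (edgeR, adjusted p = 0.0129), while Gnal did not pass there (-0.20, adjusted p = 0.326). Adcy1, a calcium-stimulated cyclase, fell in both tissues, with log2 changes of -0.62 ± 0.11 in cortex and -0.73 ± 0.14 in hippocampus (adjusted p = 0.000624 and 0.00396). Adcy1 and Gng7 did not pass in hippocampus once the 5 libraries with high choroid plexus markers were left out, nor in either batch alone. Gng7 also missed the threshold there once libraries were thinned to the smallest. The genes that rose, named after their values were seen, were Gnai2 in both tissues and Gnai3 in hippocampus, G protein subunits that glial cells express as well. Summed microglia markers were 120 to 138 CPM in control and 159 to 222 CPM in GA-Camk2a cortex, summed astrocyte markers were 1460 to 1815 CPM in control and 2856 to 3861 CPM in GA-Camk2a hippocampus, and their part in these changes was not tested.

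Of 16 regulators of receptor signalling, all tested, 2 were higher and 2 lower in hippocampus, and 1 was higher and 2 lower in cortex. The share of all genes tested that passed was 10.9% in hippocampus and 12.5% in cortex. Rgs14, an RGS protein enriched in CA2 pyramidal cells, fell in hippocampus, with a log2 change of -0.92 ± 0.11 (edgeR, adjusted p = 7.28e-05). Rgs4, which limits Gq/11 and Gi/o signals, fell in cortex, with a log2 change of -0.91 ± 0.11 (adjusted p = 6.5e-06). In the other tissue neither passed, with -0.35 for Rgs14 in cortex and -0.23 for Rgs4 in hippocampus (edgeR, adjusted p = 0.121 and 0.195). Of the 16 regulators, 0 passed the test of the difference between tissues. S100a10, the p11 protein that brings Htr1b and Htr4 to the cell surface, rose in hippocampus by 0.55 ± 0.10 (adjusted p = 0.00298). The hippocampal change of S100a10 was 0.57 in batch 1 alone and 0.52 in batch 2 alone, and passed in neither (edgeR, adjusted p = 0.185 and 0.0635). In cortex S100a10 changed by 0.03 (edgeR, adjusted p = 0.912). Dlg4, the synaptic scaffold PSD-95 that binds Htr2a and Htr2c, fell in hippocampus, with a log2 change of -0.54 ± 0.09 (adjusted p = 0.000934). The call was lost without the 5 libraries with high choroid plexus markers and in batch 1 alone. In cortex the log2 change of Dlg4 was -0.47 ± 0.14 (adjusted p = 0.0295), a call lost without GA-Camk2a 16 or 23 or control 20 or 31. It was also lost with DESeq2 without covariates, with edgeR without batch and in each batch alone.

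Other receptors of the 3 families were mostly too scarce to test. Of 14, 5 were tested in hippocampus and 3 in cortex. No receptor of this list passed in hippocampus, where the smallest adjusted p was 0.531 (edgeR). Htr3a, the serotonin-gated ion channel of interneurons, rose in cortex by 0.89 ± 0.29 on the log2 scale (edgeR, adjusted p = 0.0472), with 2.49 to 9.16 CPM in controls and 4.08 to 11.1 CPM in GA-Camk2a mice. These ranges overlapped and the call was kept in only 2 of 11 fits that left out 1 library, those without GA-Camk2a 35 or control 31. It was also lost with DESeq2, with edgeR without batch, with no filter and in batch 1 alone. Of 9 nicotinic subunits, 2 could be tested, and Chrna4 fell in cortex, with a log2 change of -0.73 ± 0.20 (adjusted p = 0.0192), though not without control 31 or GA-Camk2a 41. The Chrna4 call was also lost in each batch alone and once libraries were thinned to the smallest. Of 14 genes for ligands and their synthesis, transport and breakdown, 6 were tested in each tissue, and Npy in cortex was the 1 that passed. Over all genes tested, 12.5% passed in cortex and 10.9% in hippocampus.

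Across all 21 libraries, the genes most like each receptor were ranked by Pearson correlation of log2 CPM among 11568 genes. These values describe libraries that share depth, batch, tissue and genotype. For Npy2r they were Socs2 (0.89), Myo5b (0.89) and Gabra5 (0.87), for Chrm1 Olfm1 (0.93), Amph (0.90) and Hpcal4 (0.89), and for Chrm3 Chgb (0.87), Cacng8 (0.86) and Enc1 (0.86). Htr2a was most like Cldn12 (0.89), Cyth2 (0.88) and Tmem14a (0.88), and Npy1r most like Fgf11 (0.82), Mctp1 (0.81) and Ago1 (0.79). Htr2c came closest to Slc31a1 (0.79), Acaa2 (0.76) and Car12 (0.76), Htr1a to Fam8a1 (0.83), Cnnm1 (0.76) and Zfp462 (0.76), and Htr1b to Abracl (0.76), Cul2 (0.75) and Sipa1l1 (0.73).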

How the data were processed

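Cortex and hippocampus RNA of GA-Camk2a and control mice had been profiled by prime-seq. The authors deposited whole-number counts per gene and library, made with zUMIs and STAR on GRCm39 (mm39). The submitters' processing notes name cutadapt 1.12, FastQC 0.11.8 and DESeq2 1.44. Whether the counts are molecules or reads, the annotation release, the use of strand and the handling of introns are not given in the sources used here. All 21 count columns were used, and symbols were found for 43308 of 64361 genes, which hold 96.1% of the counts. The GFP entry was kept out of library sizes and tests.

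Groups, mouse numbers and batches came from the labels. The study gives the control numbers of the 2 tissues the other way round, and the labels were followed. Genes were filtered with filterByExpr at a minimum count of 10 and fitted over all genes in R 4.3.3 with edgeR 4.0.16 (TMM scaling, quasi-likelihood test, batch as a covariate), each tissue on its own, the control tissues together, and all 21 libraries for the interaction. P-values were adjusted by the Benjamini-Hochberg method over all genes tested, with a threshold of 0.05, and standard errors were taken as the log2 change over the square root of F. The log2 CPM values behind the likeness ranking used a prior count of 2. The procedure was first tested on simulated counts with known changes. DESeq2 1.42.0, limma-voom (limma 3.58.1), other scalings, no filter, no batch term, thinning to the smallest library, each batch alone, each library left out and the mouse as a block were alternatives.

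The mouse numbers mark the same animal in both tissues. Deviations from the group means of same-mouse libraries correlated by 0.142 to 0.284 for the 5 mice whose libraries shared a batch and by -0.229 to -0.0667 for the 5 whose libraries did not. No pair of libraries within a group was identical. The receptors and the gene lists were chosen with earlier results of these data known. Named genes are all 10 receptors and, by a rule per list, the genes past the threshold in either tissue. Where more than 4 passed, the 4 with the largest change are named. The rule does not cover the markers of cell types and regions, the likeness ranking, or Gnai2 and Gnai3. The values of 1 gene that this rule names are not reported here. With 1048201 to 5888102 counts per library, 1 count is worth up to about 1 CPM.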

Additional observations from a re-analysis of the deposited data

Results flagged for a closer look

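Among 40 groups of receptor levels, 5 held 1 library far from the others, where chance gives about 1 in 20 groups, or 2. In control cortex, mouse 37 had the highest Htr1b level, 14.7 CPM, with the next at 6.65 CPM. In control hippocampus, mouse 31 had the highest Chrm3 level, 40.5 CPM, with the next at 33.3 CPM. In GA-Camk2a cortex, mouse 16 had the lowest Npy2r level, 3.60 CPM, with the next at 6.19 CPM. For Chrm4, which has at most 2 counts in a library, mouse 41 had the highest level in GA-Camk2a cortex, 0.350 CPM, with the others at 0, and mouse 34 the lowest in GA-Camk2a hippocampus, 0 CPM, with the next at 0.557 CPM. Libraries were flagged by the gap to the nearest other library over the range of the group. The stated chance rate does not apply to counts this low, since 1 count against libraries at 0 makes the gap equal to the range.

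The genotype effect on Npy2r differed between the tissues by -1.89 on the log2 scale (edgeR interaction test, adjusted p = 0.0104). Npy2r was lower in all 6 GA-Camk2a hippocampus libraries than in any of the 4 controls.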

How the results depend on the processing

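Over 61 log2 changes and 1321 recomputed values, 1205 kept their direction and their side of the threshold, 63 lost the call, 15 gained it and 38 changed sign. The cause was not tested, except that fewer libraries or counts entered the batch, thinned and left-out fits. Chrm4 and Htr4 had too few counts to pass the filter.

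Leaving out 1 library gave 1038 to 1526 genes in cortex (1635 with all), 1038 to 1831 in hippocampus (1628), 22 to 66 for the difference between tissues (59) and 1580 to 3168 between control tissues (2351). Cortex fell to 1038 without control 31, and hippocampus to 1082 without control 20 and 1038 without control 31. The receptors called numbered 1 to 3, 3 to 4, 1 to 2 and 2 to 4 in these fits. In cortex, limma-voom called 2 receptors, no filter 3 and batch 2 alone 0; thinning called 1023 genes, batch 1 alone 876 and batch 2 alone 230. In hippocampus, thinning called 1072 genes, batch 1 alone 115 genes and 1 receptor, batch 2 alone 681, and the fit without the 5 libraries high in choroid plexus markers, chosen after seeing the data, 389. For the difference between tissues, DESeq2 called 98 genes without covariates and 127 with batch, edgeR 36 without batch, 159 with no filter and 20 when thinned, and the receptors called were 2 with DESeq2 without covariates and 0 when thinned. DESeq2 gave no adjusted p for Npy2r with batch. Between control tissues thinning called 1368 genes.

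With the mouse as a replicate block, 70 genes and 1 receptor passed for the difference between tissues, and 2002 genes and 3 receptors between control tissues, with Chrm3 in place of Chrm1. The replicate block changed no other receptor's call.

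The sign of some log2 changes turned, none of them past the threshold with all libraries. In batch 2 alone it did so for Htr1a (0.12) and Htr2c (0.049) in cortex, Htr2c in hippocampus (-0.46), Npy in hippocampus (0.039), S100a10 in cortex (-0.21) and Chrna4 in hippocampus (-0.15), and in batch 1 alone, in hippocampus, for Npy1r (-0.17), Htr3a (-0.16) and Adcy5 (-0.089). Without the libraries high in choroid plexus markers it did so for Htr3a in hippocampus (-0.17) and Htr2c between tissues (-0.24). Npy1r in hippocampus was -0.039 with limma-voom, -0.058 with no filter and -0.045 when thinned. Adcy5 in hippocampus was -0.024 with no filter, Chrna4 in hippocampus -0.054 with no filter and -0.012 when thinned, and S100a10 in cortex -0.00117 without batch and -0.050 when thinned. Leaving out 1 library gave -0.12 to 0.17 for Npy1r, -0.041 to 0.74 for Htr2c, -0.035 to 0.13 for Adcy5 and -0.057 to 0.19 for Chrna4 in hippocampus, -0.039 to 0.098 for S100a10 in cortex, -0.058 to 0.61 for the Htr1b difference between genotype effects, and -0.60 to 0.045, -0.080 to 0.36 and -0.021 to 0.19 for Htr1b, Htr2c and Npy1r between control tissues. The libraries concerned include hippocampus GA-Camk2a 30 and control 20 for Htr2c, and cortex control 37 for Htr1b and 20 for Npy1r.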
